A study of Mus musculus with 20 samples.

Results

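Transcripts of 7 genes that are known from lymphocytes were followed through mouse hypothalamus: the immunoglobulin constant genes Ighm and Igkc, the T cell receptor and CD3 genes Trac, Cd3e and Cd3g, and the surface receptor genes Ly9 and Cd22. They are 7 of the 54532 genes in the count table and were taken by name, across all 5 groups. The names were drawn up with results of the comparison of old with young controls known, so the difference between those groups is described for these genes and not tested.

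RNA was poly-A selected from flash-frozen hypothalamus of male C57BL/6J mice and sequenced as 20 non-directional libraries. Young controls (4 libraries) were 3 months old and ate a control diet for 1 week. In the acute arm, mice of 4 months ate a control diet (5 libraries) or a glycation-lowering diet called Gly-Low (4 libraries) for 1 week. In the prolonged arm, mice of 25 months ate the control diet (4 libraries) or Gly-Low (3 libraries) for 5 months. No group carries a transgene or deletion by its labels. Separate animals behind the libraries are not stated in the labels, and p-values measure the spread between these libraries.

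Antibodies are built from heavy and light chains, and Ighm and Igkc encode the constant parts of the IgM heavy chain and of the kappa light chain. T cells recognise antigen with an alpha and beta chain receptor that signals through the CD3 chains. Few lymphocytes are found in healthy brain tissue, and most of those are described at its borders and in its vessels.

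Ighm lies on chromosome 12 from 113418558 to 113422730 on the minus strand, and Igkc on chromosome 6 from 70726435 to 70726966 on the plus strand (GRCm38). Trac lies on chromosome 14 from 54220521 to 54224206 on the plus strand. Cd3g (44969572 to 44980431) and Cd3e (44998740 to 45009627) are neighbours on the minus strand of chromosome 9, 18308 bases apart. Ly9 lies on chromosome 1 from 171588624 to 171607410, and Cd22 on chromosome 7 from 30865402 to 30880342, both on the minus strand.

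RefSeq (GRCm38.p6) gave promoter windows of 250 bases before to 50 after the RefSeq gene start for 3 of the 7 genes, Cd22, Cd3g and Cd3e. The Cd22 window lies inside the Cd22 span given above, which came from GENCODE M21, so these annotations place its start differently. The 3 windows are shown because the other members had none, and they were not picked by their counts. Capitals mark matches to 4 short motifs, searched on both strands: the octamer ATGCAAAT, the PU.1 core GAGGAA, the E-box CACCTG and the GATA motif AGATAA. The windows are chr7:30878979-30879278, chr9:44980382-44980681 and chr9:45009562-45009861, each read 5′ to 3′ on the minus strand.
Cd22: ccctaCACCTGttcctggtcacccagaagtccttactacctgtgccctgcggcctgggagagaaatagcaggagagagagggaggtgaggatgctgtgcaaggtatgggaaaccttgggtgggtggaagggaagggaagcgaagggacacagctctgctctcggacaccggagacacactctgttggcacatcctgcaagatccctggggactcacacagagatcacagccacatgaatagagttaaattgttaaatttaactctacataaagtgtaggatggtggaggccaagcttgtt
Cd3g: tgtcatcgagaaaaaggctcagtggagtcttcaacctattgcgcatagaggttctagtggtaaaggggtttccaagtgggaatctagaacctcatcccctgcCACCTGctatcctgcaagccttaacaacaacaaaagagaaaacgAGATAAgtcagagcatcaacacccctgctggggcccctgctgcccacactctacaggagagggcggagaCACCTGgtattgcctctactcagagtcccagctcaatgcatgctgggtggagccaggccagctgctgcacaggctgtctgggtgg
Cd3e: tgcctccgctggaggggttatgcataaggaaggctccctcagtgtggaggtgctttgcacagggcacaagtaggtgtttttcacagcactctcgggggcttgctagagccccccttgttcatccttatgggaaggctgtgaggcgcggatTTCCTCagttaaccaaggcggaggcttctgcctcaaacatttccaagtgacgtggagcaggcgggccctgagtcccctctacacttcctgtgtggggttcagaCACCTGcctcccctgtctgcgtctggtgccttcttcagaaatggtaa

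The E-box stood in all 3 windows and in 20.2% of the 32851 promoter windows of the same length. Cd3g also held the GATA motif, present in 11.2% of windows, and Cd3e the PU.1 core on the other strand (TTCCTC), present in 28.3%. None of the 3 held the octamer, present in 1.74%.

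Libraries held 15848372 to 27399753 counts. All 7 hypothalamic marker genes, such as Agrp, Pmch and Oxt, were counted in every group. Pituitary hormone transcripts summed to 3685 to 61130 CPM (counts per 1e6 counts of the library, scaled by TMM) in acute controls 2, 3 and 5 and to at most 1214 CPM in the other libraries. Mitochondrial transcripts took 17.0 to 23.3% of counts in acute Gly-Low, 5.35 to 9.11% in acute controls, 5.73 to 17.2% in young controls, 5.54 to 15.8% in old controls and 4.94 to 7.36% in old Gly-Low. Old control 3, with the highest share of its group, also had the lowest Igkc and Cd22 and the highest Trac of that group.

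Ighm was the immunoglobulin gene with counts in every library. Its levels in young controls 1 to 4 were 7.34, 6.01, 9.30 and 7.39 CPM, and in acute controls 1 to 5 they were 10.2, 10.2, 7.39, 9.57 and 8.76 CPM. In acute Gly-Low 1 to 4 they were 13.8, 11.8, 11.5 and 10.4 CPM. In old controls 1 to 4 they were 23.4, 26.2, 25.3 and 16.8 CPM, and in old Gly-Low 1 to 3 they were 20.1, 15.2 and 14.8 CPM. Each of the 7 libraries of 25 months lay above each of the 13 libraries of 3 or 4 months, as the plot of levels by library shows. This split, also seen for Ly9 and Cd22 below, includes the old and young controls that brought the genes up. The share of all genes split this way was not computed. The order of group means was old control (22.9 ± 4.23 CPM, SD, n = 4), old Gly-Low (16.7 ± 2.98, n = 3), acute Gly-Low (11.9 ± 1.41, n = 4), acute control (9.21 ± 1.17, n = 5) and young control (7.51 ± 1.35, n = 4). Of neighbours in that order, the old groups overlapped each other, and so did the young and acute controls.

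**Figure D1:**
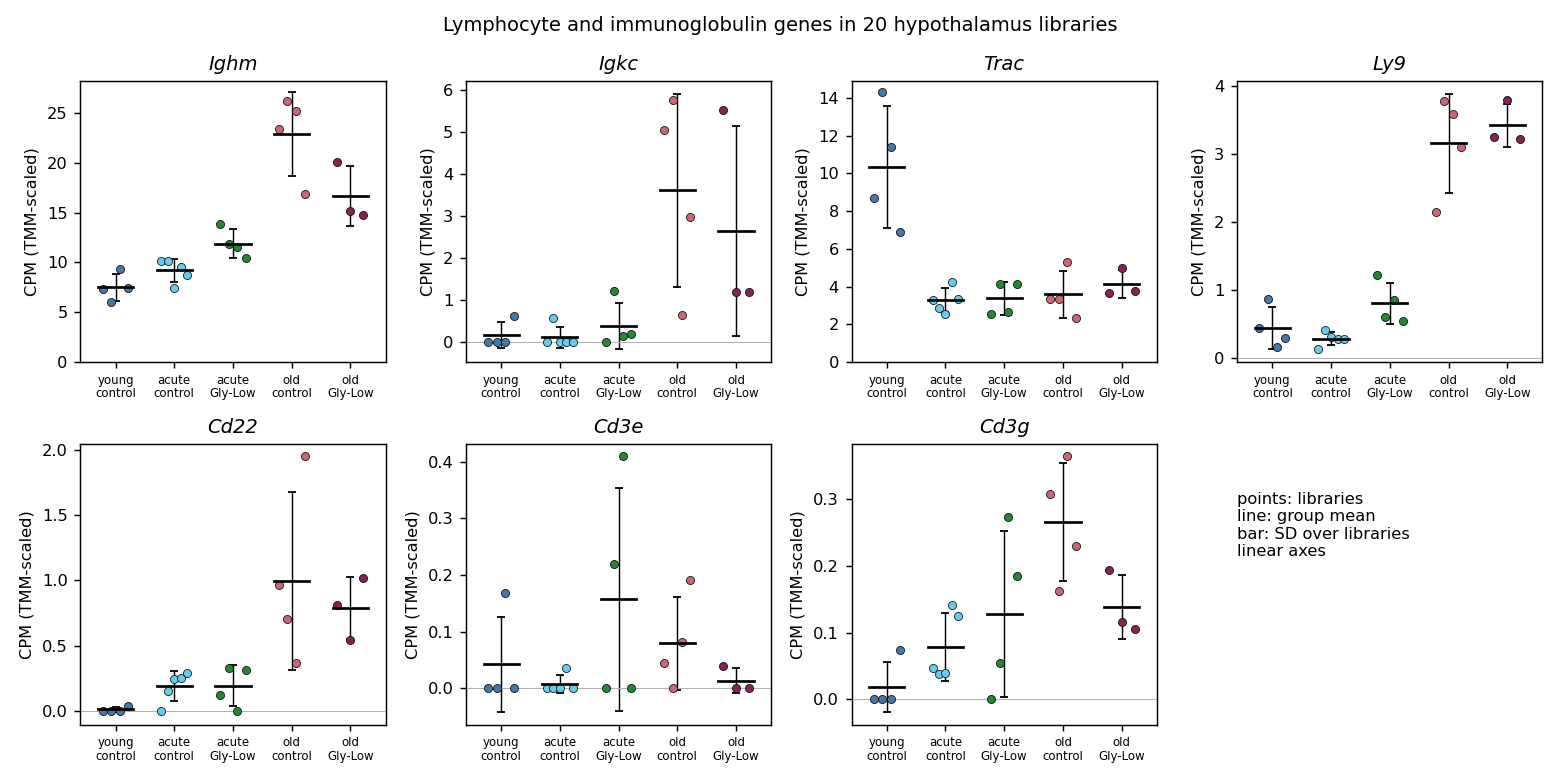
Level of each of the 7 genes (CPM, linear axes) in each of the 20 libraries by group, with the group mean as a line and the SD as a bar. Ly9 and Ighm are higher in all 7 libraries of 25 months than in the 13 younger ones, a split whose share over all genes was not computed. Trac is highest in the young controls, and the share of all genes with that pattern was not computed either.

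Igkc was sparser and less even. Young controls 1 to 4 held 0, 0, 0 and 17 counts, acute controls 1 to 5 held 0, 15, 0, 0 and 0, and acute Gly-Low 1 to 4 held 0, 22, 3 and 3. Old controls 1 to 4 held 115, 107, 16 and 78 counts, and old Gly-Low 1 to 3 held 143, 31 and 34. Igkc was at 0 in 8 of the 13 younger libraries and in none of the 7 old ones. The lowest old control lay beside the highest young control (0.646 and 0.628 CPM), so the separation of these groups rests on a narrow gap. Group means were 3.61 ± 2.31 CPM in old controls (n = 4), 2.64 ± 2.51 in old Gly-Low (n = 3), 0.381 ± 0.553 in acute Gly-Low (n = 4), 0.157 ± 0.314 in young controls (n = 4) and 0.113 ± 0.253 in acute controls (n = 5). The 3 younger groups overlapped one another, as did the 2 old groups. Acute Gly-Low overlapped both old groups as well, since acute Gly-Low 2 (1.2 CPM) lay above old control 3 and just above old Gly-Low 2 and 3.

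The variable segments that join these constant genes in antibody-producing cells were counted too. The 100 kappa variable segments together had 38 counts in young controls, 14 in acute controls, 18 in acute Gly-Low, 119 in old controls and 87 in old Gly-Low. The 113 heavy variable segments had 8, 8, 6, 45 and 70 counts in the same order. Of the 70 counts, 59 came from old Gly-Low 1, with 3 and 8 in the others, and the 8 in young controls came from 1 segment in 1 library. The median per library was 0.28 CPM in old Gly-Low and 0.62 CPM in old controls, the reverse of the order of the sums. A single segment, Igkv12-98, gave 37 counts in 1 library, so the sums do not stand for many segments in every library.

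Among other constant genes, Igha, the heavy chain of IgA, had 7 counts in young controls, 7 in acute controls, 0 in acute Gly-Low, 35 in old controls and 60 in old Gly-Low. Ighg2b had 3, 0, 0, 8 and 48 counts in that order. Jchain, which joins IgM and IgA units, had 34, 67, 35, 99 and 101. These genes were named after their values were seen. The 6 plasma cell genes, Jchain among them, reached their highest sum in acute controls (3.76 to 13.2 CPM). They summed to 2.39 to 4.95 CPM in young controls, 4.16 to 6.39 in old controls and 3.25 to 5.19 in old Gly-Low. The 10 constant genes that include Igha summed to 4.18 CPM in old Gly-Low 1 and to 1.08 and 1.47 CPM in the others. Of these 10, Ighg1, Ighg3, Ighe and Iglc3 were at 0 in old Gly-Low. The 8 B cell markers summed to 2.55 to 2.74 CPM in young controls and 2.33 to 3.87 CPM in old controls, with Blk at 0 in the young controls.

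Summed blood and microglia transcripts also had their highest group means in the old groups. The 5 erythrocyte genes summed to 63.6 to 373 CPM in young controls, 72.8 to 323 CPM in acute controls, 556 to 1507 CPM in acute Gly-Low, 865 to 1804 CPM in old controls and 979 to 3115 CPM in old Gly-Low, with none of the 5 at 0 in any group. The 7 microglia genes summed to 251 to 273 CPM in young controls, 223 to 282 CPM in acute controls, 229 to 248 CPM in acute Gly-Low, 339 to 375 CPM in old controls and 340 to 382 CPM in old Gly-Low. Acute control 2 and acute Gly-Low 2 had both the highest Igkc and the highest erythrocyte sum of their groups (323 and 1507 CPM). In the other groups these highest values fell on different libraries. Old Gly-Low 1 had the highest Igkc of its group, and old Gly-Low 2 the highest erythrocyte sum. The part of either marker list in the immunoglobulin levels was not tested. In bulk tissue, more cells of a type and more RNA per cell cannot be told apart.

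**Figure D2:**
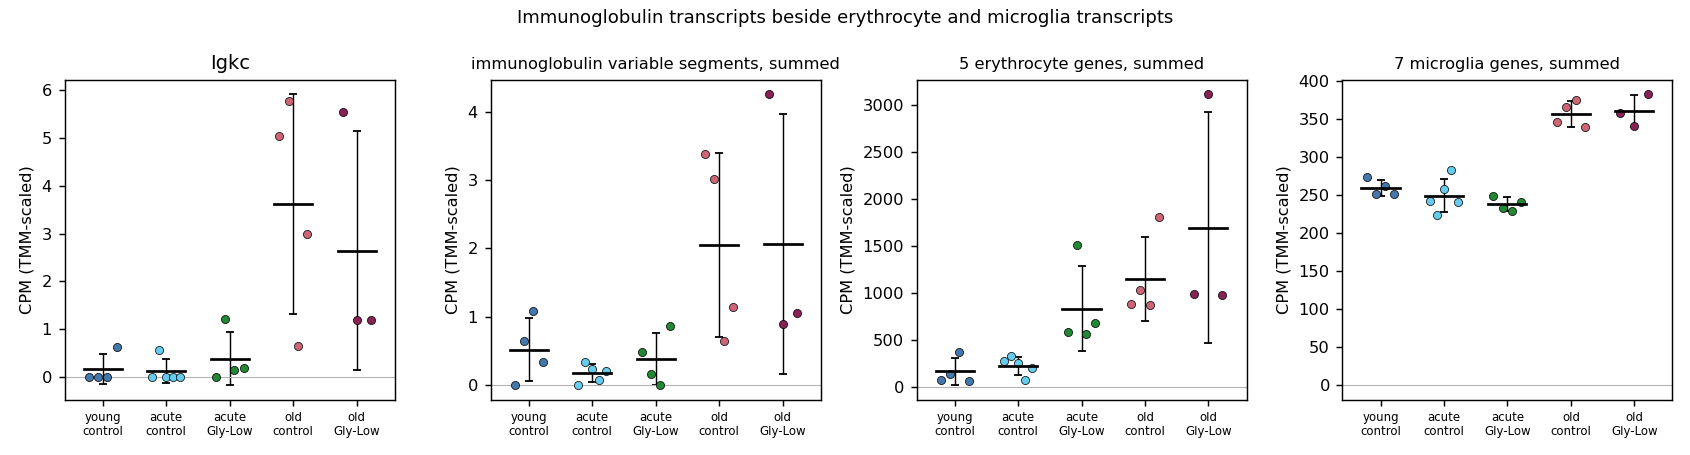
Igkc, the summed immunoglobulin variable segments, 5 summed erythrocyte genes and 7 summed microglia genes (CPM, linear axes) by library, with group means and SD. All 4 measures have higher means in the old groups. In both acute groups the library highest in Igkc is also highest in erythrocyte transcripts, while in the young and old groups it is not.

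Trac, the constant part of the T cell receptor alpha chain, followed another pattern. Young controls 1 to 4 held 139, 245, 272 and 187 counts, acute controls 1 to 5 held 69, 76, 64, 120 and 81, and acute Gly-Low 1 to 4 held 42, 76, 58 and 67. Old controls 1 to 4 held 76, 62, 131 and 61 counts, and old Gly-Low 1 to 3 held 94, 129 and 107. The young controls lay above every library of the other 4 groups, and those 4 groups overlapped one another. The share of all genes set apart this way was not computed. The young controls are also part of the comparison that brought the genes up. Within the young controls, libraries 2, 3, 1 and 4 had 14.3, 11.4, 8.72 and 6.91 CPM of Trac and mitochondrial shares of 17.2, 13.7, 12.9 and 5.73%. Acute Gly-Low libraries, with mitochondrial shares of 17.0 to 23.3%, had 2.56 to 4.15 CPM of Trac. The median Trac transcript is short, at 413 bases, and young controls 1, 2 and 3 were richer in short transcripts than young control 4. So were all acute Gly-Low libraries. The part of these library properties in the level of Trac was not tested across libraries, and with a transcript length offset the difference from acute controls was smaller, as given with that comparison. Group means were 10.3 ± 3.23 CPM in young controls (n = 4), 4.12 ± 0.748 in old Gly-Low (n = 3), 3.58 ± 1.23 in old controls (n = 4), 3.37 ± 0.894 in acute Gly-Low (n = 4) and 3.26 ± 0.643 in acute controls (n = 5).

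The CD3 chains, which the alpha and beta receptor needs to reach the cell surface, did not share the level of Trac. Cd3e had 0, 0, 4 and 0 counts in young controls 1 to 4, 0, 0, 0, 1 and 0 in acute controls, 0, 4, 9 and 0 in acute Gly-Low, 1, 0, 2 and 5 in old controls, and 1, 0 and 0 in old Gly-Low. Cd3g had 0, 0, 0 and 2 counts in young controls, 1, 1, 1, 4 and 3 in acute controls, 0, 1, 6 and 3 in acute Gly-Low, 7, 3, 9 and 6 in old controls, and 5, 3 and 3 in old Gly-Low. Both stayed at 9 counts or fewer in every library. Cd3d, the third CD3 gene of the cluster, summed to 2 counts in young controls, 2 in acute controls, 6 in acute Gly-Low, 7 in old controls and 8 in old Gly-Low.

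The summed counts of Cd3g were 25 in old controls against 2 in young controls, a ratio per library size of 11.4. That ratio rests on 2 young counts, pools the libraries of each group and is not a test. Cd3e overlapped between those groups. The 113 alpha and delta variable segments summed to 32 counts in young controls, where Trac had 843, and to 57 counts in old controls, where Trac had 330. The most counted of all segments was Trdv4, with 54 counts over 13 libraries. Trbc2, a beta chain constant gene, had a mean of 2.58 CPM in young controls, 1.2 CPM in acute controls, 4.70 CPM in acute Gly-Low, 2.74 CPM in old controls and 1.96 CPM in old Gly-Low, so its order differed from that of Trac.

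**Figure D3:**
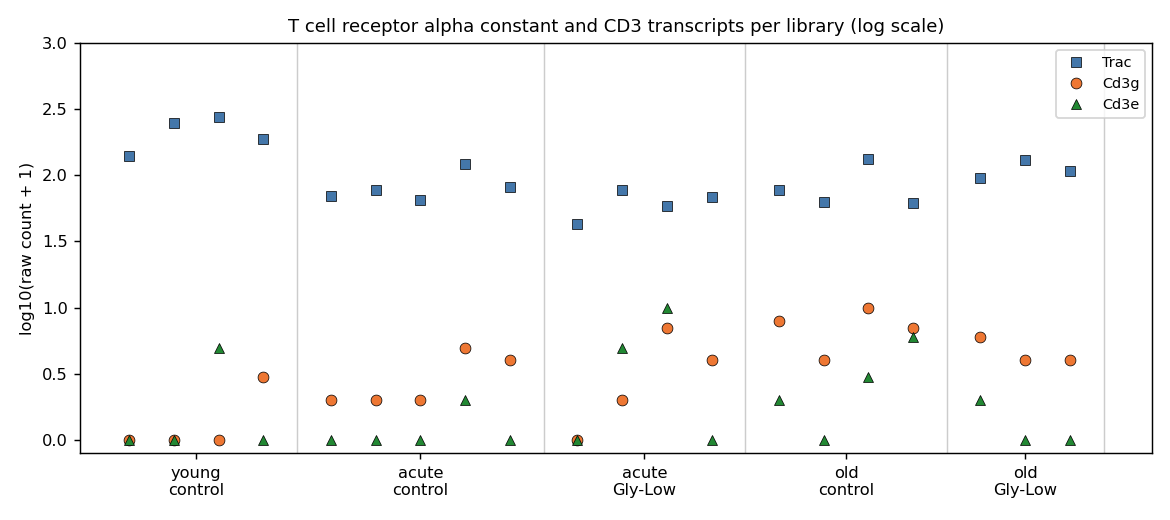
Raw counts of Trac, Cd3g and Cd3e in each library, as log10 of the count plus 1, by group. Trac stands at 42 to 272 counts in every library, while Cd3g and Cd3e stay at 0 to 9.

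Ly9 encodes a receptor of the SLAM family, which immune cells use to bind one another. Its counts were 7, 15, 4 and 8 in young controls 1 to 4, 3, 11, 8, 8 and 7 in acute controls 1 to 5, and 20, 11, 19 and 9 in acute Gly-Low 1 to 4. They were 49, 70, 89 and 81 in old controls 1 to 4, and 84, 98 and 92 in old Gly-Low 1 to 3. No younger library exceeded 20 counts and no old library fell under 49. Group means were 3.42 ± 0.318 CPM in old Gly-Low (n = 3), 3.16 ± 0.728 in old controls (n = 4), 0.810 ± 0.304 in acute Gly-Low (n = 4), 0.444 ± 0.308 in young controls (n = 4) and 0.290 ± 0.0976 in acute controls (n = 5). The old groups overlapped, as did young controls with each acute group. Ly9 lies within Cd244a, a SLAM gene on the other strand, with 0 shared exonic bases, and Cd244a had 0 to 25 counts per library.

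Cd22 encodes a sialic acid binding receptor that dampens signalling in B cells. Young controls 1 to 4 held 0, 0, 0 and 1 counts, acute controls 1 to 5 held 0, 4, 6, 7 and 7, and acute Gly-Low 1 to 4 held 2, 6, 0 and 5. Old controls 1 to 4 held 22, 13, 9 and 51 counts, and old Gly-Low 1 to 3 held 21, 14 and 29. All 7 old libraries exceeded the 13 younger ones, by a narrow gap. The lowest old library, old control 3, had 0.363 CPM, and the highest younger one, acute Gly-Low 2, had 0.328 CPM. The summed counts were 95 in old controls and 1 in young controls, a ratio per library size of 86.6. That ratio rests on 1 young count, pools libraries of uneven counts and is not a test. Cd22 shares 479 exonic bases with Gm29439, an antisense gene with 0 counts in all libraries, and the strand setting of the counting is not given in the sources used here.

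Per kilobase of the median annotated transcript, Trac led in young controls with 25.0 CPM per kb, ahead of Ighm with 4.42, Igkc with 0.295 and Ly9 with 0.206 CPM per kb. In old controls Ighm led with 13.5 CPM per kb, ahead of Trac with 8.66, Igkc with 6.79, Ly9 with 1.46 and Cd22 with 0.271 CPM per kb. With all exons of a gene merged, Trac came to 3.82 CPM per kb in old controls, under Igkc.

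Between old and young controls, edgeR's log2 fold change was 1.59 ± 0.22 (SE) for Ighm, 4.28 ± 1.16 for Igkc, 2.84 ± 0.45 for Ly9 and -1.54 ± 0.32 for Trac. Among all 18281 genes tested there, 0.0328% were called. Of the 7 genes, 5 lay above without overlap and 1 below, against 1.90% and 1.72% of all genes with a count. These values describe the comparison that brought the genes up. Among related genes, the 8 SLAM family genes tested had a median log2 fold change of 1.48 there, the 18 antigen receptor signalling genes 0.38, the 4 B cell genes 0.18 and the 5 T cell genes 0.08, against 0.02 over all genes, and none of these genes was called.

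Old Gly-Low against acute control sets an old against a younger group, neither of which is one of the 2 groups compared above, with diet, its duration and the arm differing too. The fits share libraries in estimating the spread: that of old and young controls included old Gly-Low, and this one used all 20 libraries. Ly9 rose, with a log2 fold change of 3.52 ± 0.42 and an adjusted p of 0.000678 by edgeR's quasi-likelihood test with Benjamini-Hochberg adjustment. It was 1 of 5 of the genes in the fit to be called, and 0.241% of all genes were called. Ighm (0.86 ± 0.19, edgeR adjusted p = 0.0639), Igkc (4.43 ± 1.30, adjusted p = 0.288), Cd22 (2.04 ± 0.79, adjusted p = 0.496) and Trac (0.34 ± 0.29, adjusted p = 0.932) did not pass. Igkc and Cd22 were under the filter on low counts in the acute arm alone. They entered only fits that include the old groups, where they are high. Their p-values, here and below, are therefore not independent of that filter. Old Gly-Low lay above acute control without overlap for 4 of the 7 genes, Ighm, Igkc, Ly9 and Cd22, against 2.86% of all genes. Such shares, here and in the comparisons below, are over the 33152 genes with a count in any library. They are not matched to genes that were named with an age comparison known. Ly9 kept its call when any 1 library was left out (adjusted p 0.00203 to 0.00646 by edgeR) and lost it without acute controls 2, 3 and 5 together (log2 fold change 3.94, adjusted p = 0.151). DESeq2 called Ighm (adjusted p = 0.00477).

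In the same comparison, 1 of the 8 SLAM family genes tested rose, Cd84 (1.30 ± 0.26, edgeR adjusted p = 0.0444), and the median of the 8 was 1.29 against 0.03 over all genes. Of 18 antigen receptor signalling genes 1 rose, Ptprc, the CD45 phosphatase of blood-derived cells (1.04 ± 0.21, adjusted p = 0.0444 by edgeR). None of the 6 T cell, 4 B cell or 4 plasma cell genes tested was called. Of the 5 erythrocyte genes 4 rose, among them the globin gene Hbb-bs (2.95 ± 0.55, edgeR adjusted p = 0.0318). These calls, too, were all lost without acute controls 2, 3 and 5 together, and the 46 calls over all genes fell to 4 to 27 when any 1 library was left out.

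Against acute Gly-Low, old Gly-Low was higher in Ly9, by 2.07 ± 0.43 on the log2 scale (adjusted p = 0.000834 by edgeR), in a comparison where 44.5% of genes were called. The call held in all 12 alternatives run. Ighm (0.49 ± 0.20, edgeR adjusted p = 0.0509), Cd22 (2.06 ± 0.87, adjusted p = 0.0612), Igkc (2.77 ± 1.29, adjusted p = 0.0889) and Trac (0.29 ± 0.31, adjusted p = 0.457) did not pass. With the transcript length offset edgeR called Trac (1.31, adjusted p = 0.00124), Ighm (0.76, adjusted p = 0.00651) and Igkc (3.96, adjusted p = 0.0328). Ighm was also called without acute Gly-Low 1 (edgeR adjusted p = 0.0397), Igkc without acute Gly-Low 2 (4.55, adjusted p = 0.0288), and Cd22 by DESeq2 (adjusted p = 0.0411). The calls of Igkc and Cd22 carry the limit from the filter given above and are not independent tests. Old Gly-Low lay above without overlap for 3 of the 7 genes, against 17.4% of all genes. Both comparisons share the old Gly-Low libraries.

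**Figure D4:**
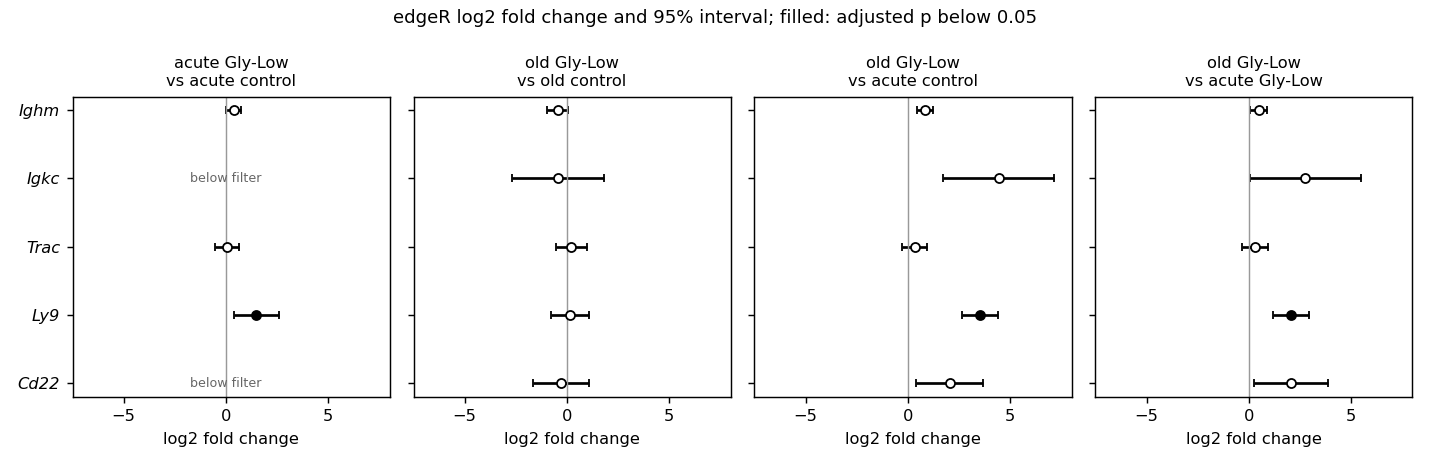
Log2 fold change with its 95% interval (edgeR) for 5 genes in 4 comparisons, filled where the adjusted p was below 0.05. Ly9 is called in 3 of them, and its interval lies across 0 between the old groups.

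Gly-Low for 1 week was compared with the control diet in the acute arm, where 58.3% of genes were called. Ly9 rose, by 1.47 ± 0.51 on the log2 scale (adjusted p = 0.0231 by edgeR). Ighm (0.38 ± 0.17, edgeR adjusted p = 0.0695) and Trac (0.06 ± 0.28, adjusted p = 0.872) did not pass, and Igkc, Cd22, Cd3e and Cd3g were under the filter on low counts. Acute Gly-Low lay above acute control without overlap for 2 of the 7 genes, Ighm and Ly9, against 12.4% of all genes. The Ly9 call was lost without acute Gly-Low 1 (adjusted p = 0.0859 by edgeR) or 3 (adjusted p = 0.0517), with no filter on low counts (adjusted p = 0.115) and without acute controls 2, 3 and 5 together (log2 fold change 1.85, adjusted p = 0.125). DESeq2 called Ighm (adjusted p = 0.0419). With a transcript length offset Trac turned to -1.38 (edgeR adjusted p = 0.00136).

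Of the 4 other SLAM genes tested there 3 rose, beside the 58.3% of all genes called in either direction: Cd84 (1.47 ± 0.21, adjusted p = 3.4e-05 by edgeR), Cd48 (2.39 ± 0.42) and Slamf9 (1.28 ± 0.41). Of 4 T cell genes tested 2 rose, Trbc2 (1.99 ± 0.32) and the kinase gene Lck (0.84 ± 0.27). The B cell receptor signalling gene Cd79a rose by 3.14 ± 0.61. All 6 border macrophage genes rose, among them Lyve1 (2.65 ± 0.43) and Mrc1 (1.13 ± 0.19), and their sum was 30.0 to 43.3 CPM in acute Gly-Low against 8.62 to 12.7 CPM in acute controls, with none of the 6 at 0. All 5 erythrocyte genes rose. Other lists held more genes that fell: of 16 antigen receptor signalling genes 7 fell, among them Prkcb (-1.09 ± 0.13), and 1 rose, Bcl10 (0.73 ± 0.16). Of 7 microglia genes 3 fell and 2 rose, and of 4 plasma cell genes 1 fell, Sdc1 (-1.53 ± 0.43). The part of these lists in the Ly9 difference was not tested.

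Gly-Low for 5 months was compared with the control diet in old mice; the old controls are also part of the comparison that brought the genes up. No gene of 18281 was called by edgeR (0%), with 433 at an unadjusted p under 0.05, and DESeq2 called 3. The log2 fold changes were -0.44 for Ighm (95% interval -0.96 to 0.07), -0.43 for Igkc (-2.68 to 1.82), 0.22 for Trac (-0.53 to 0.97), 0.14 for Ly9 (-0.80 to 1.07) and -0.29 for Cd22 (-1.66 to 1.07). Each of the 7 genes overlapped between the old groups, while 2.3% of all genes lay above and 2.26% below without overlap.

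The diet difference itself was tested as the effect in old mice minus that in the acute arm, where 36% of genes were called. For Ighm it was -0.83 ± 0.26 (adjusted p = 0.0203 by edgeR), with a transcript length offset giving -0.44 and an adjusted p of 0.247. That call was also lost without acute Gly-Low 1, old Gly-Low 2 or old Gly-Low 3, at adjusted p of 0.0529, 0.0557 and 0.0618 by edgeR, with no filter (adjusted p = 0.0700) and without acute controls 2, 3 and 5 together (adjusted p = 0.0990). Ly9 (-1.33 ± 0.58, edgeR adjusted p = 0.0791), Igkc (-2.11 ± 1.79, adjusted p = 0.372), Cd22 (-0.32 ± 1.17, adjusted p = 0.852) and Trac (0.16 ± 0.41, adjusted p = 0.784) did not pass. Trac was called with the length offset (1.56, edgeR adjusted p = 0.00453) and Ly9 by DESeq2 (-1.38, adjusted p = 0.0435). Old controls enter this difference, so it is not independent of how Ighm was chosen.

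The young and acute controls, 1 month apart in age and both on a control diet for 1 week, differed in Trac. Acute controls were lower by a log2 fold change of -1.66 ± 0.27, and lay below young controls without overlap, against 2.11% of all genes. The young controls are shared with the comparison of old with young controls, so the difference is given with no test. With a transcript length offset it was -1.01. Mitochondrial shares were 5.73 to 17.2% in young and 5.35 to 9.11% in acute controls, and without acute controls 2, 3 and 5, which held pituitary transcripts, the Trac value was -1.45. In that comparison edgeR called 5.29% of genes. Cd22 had 24 counts in acute controls against 1 in young controls, a ratio per library size of 16.1 that rests on 1 young count. The groups overlapped for Cd22, since acute control 1 held 0 counts, and this difference too is given with no test.

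Genes whose log2 CPM ran closest to a member over the 20 libraries were sought among 16796 others, by the root mean square difference of centred values. For Ighm they were Naip2 (0.30), Ptprc (0.31) and Adgre1 (0.33), beside a spread of Ighm itself of 0.61. For Ly9 they were C3ar1 (0.72), Fcgr2b (0.80) and Gm4951 (0.81), beside a spread of 1.41. For Trac they were Gm14597 (0.40), Gng3 (0.41) and Arxes1 (0.42), beside a spread of 0.70. The libraries differ in depth, age group and diet, whose part in the closeness was not tested, so closeness here is a description.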

How the data were processed

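The authors deposited raw counts per gene for 20 libraries; alignment to GRCm38 and counting involved HISAT2 2.0.5 and featureCounts 1.5.0-p3, per the submitters' processing notes. For the annotation release and strand setting, the sources used here give nothing. Gene positions and lengths came from GENCODE M21. The members and lists were chosen with earlier results of these data known.

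Genes were filtered with filterByExpr by group, scaled by TMM and tested with edgeR 4.0.16 (R 4.3.3, quasi-likelihood F test, Benjamini-Hochberg threshold 0.05). The acute comparison used 9 libraries, the old diet and age comparisons the 11 of the ageing arm, and the others all 20. Levels are TMM CPM. Ratios of summed counts pool the libraries of each group and carry no test. Alternatives were DESeq2 1.42.0, RLE scaling, no filter, a replicate block, an offset from 40 transcript length bins, other library sets and leaving out each library. Leaving out acute controls 2, 3 and 5 was added after seeing the data. The fit was tested on simulated data: 4-fold changes were recovered in nearly all cases in each comparison, but smaller, 2-fold changes much less often in the diet difference than elsewhere, so a missed call there carries little weight.

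Named genes are the 7 members, from each related list up to 4 genes with the smallest p among those called (or, with none called, the 2 of highest mean CPM), and the 3 closest genes per member with a median of at least 10 counts; Igha, Ighg2b, Jchain, Cd3d and the segments were named after their values were seen.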

Additional observations from a re-analysis of the deposited data

Results flagged for a closer look

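In 7 of 28 groups of 4 or 5 libraries, 1 library stood far from the rest by Dixon's criterion, which chance meets in about 1 in 20 groups of continuous values. That rate does not hold for counts this low, so the number of such groups is not read against it. For Igkc these were young control 4 (0.628 CPM), acute control 2 (0.565 CPM) and acute Gly-Low 2 (1.2 CPM), each the highest of its group. For Cd3e they were young control 3 (0.168 CPM) and acute control 4 (0.0355 CPM). For Cd3g and Cd22 it was young control 4 (0.0739 and 0.0369 CPM). In 6 of these 7 groups every other library of the group was at 0, and 3 of the 7 fall on young control 4.

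The estimated effect of Gly-Low on Ighm differed between old mice and the acute arm, by -0.83 on the log2 scale (adjusted p = 0.0203 by edgeR). Neither diet effect was called on its own (edgeR adjusted p = 0.0695 in the acute arm and 0.953 in old mice). The call was lost in 6 of 22 alternatives, with values of -1.01 to -0.44 and adjusted p of 0.00682 to 0.247 over all 22. The old controls that enter this difference also took part in bringing Ighm up, so its p-value is not an independent test.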

How the results depend on the processing

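Counts of called genes moved with the processing. Old against young controls gave 6 calls, 388 by DESeq2, 11 with no filter, 18 with the length offset and 0 to 6 with 1 library left out. Old Gly-Low against acute control gave 46, 159 by DESeq2, 4 to 27 with 1 library left out and 0 without acute controls 2, 3 and 5. Acute against young controls gave 1009, 1717 by DESeq2, 236 with the length offset, 0 to 3957 with 1 library left out and 0 without acute controls 2, 3 and 5. Old Gly-Low against acute Gly-Low gave 8476 and 5578 to 8022 with 1 library left out. The diet difference gave 6859, 4397 with the length offset and 4506 without acute controls 2, 3 and 5. The old diet gave 0 and 3 by DESeq2. The causes were not tested.

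Whether replicate numbers pair the libraries is doubtful. Same-numbered old control and old Gly-Low libraries deviated together in 3 of 3 pairs (r = 0.253 to 0.417), but 0 of 3 correlated best with their own number, and the table's columns number old Gly-Low 2 and 3 as 4 and 5. With the replicate block by title number, old Gly-Low against acute control gave 4 calls and acute against young controls 0; Cd22 turned to 0.32 for the old diet and 0.086 for the diet difference, and Ly9 lost its call in the acute arm (edgeR adjusted p = 0.116). Between old and acute Gly-Low the block called Igkc (3.59, edgeR adjusted p = 0.0400) and Cd22 (2.58, adjusted p = 0.0349). Both genes entered that fit with the old groups, where they are high, so these calls are not independent of the filter on low counts.

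Of 433 values of the members under alternatives, 389 kept direction and call, 16 lost a call, 15 gained one and 13 changed sign. Trac in the acute arm turned to -1.38 with the length offset, ran from -0.066 (without acute Gly-Low 2) to 0.18 (without acute control 4) with 1 library left out, with -0.03 and -0.05 without acute control 3 or acute Gly-Low 4, and was -0.19 without acute controls 2, 3 and 5. The old diet value of Ly9 ran from -0.011 (without old control 1) to 0.24, and that of Cd22 from -0.57 to 0.23 (without old control 4). Igkc between acute and young controls ran from -5.05 (without acute control 2) to 4.46 (without young control 4). The diet difference of Cd22 ran from -0.76 to 0.24 (without old control 4), with 0.14 and 0.04 without acute Gly-Low 2 or 4. Igkc, Cd22, Cd3e and Cd3g rest on few counts, which limits their precision.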
